A study of Rattus norvegicus with 12 samples.

Results

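The 10 genes described here, Cd68, Csf1r, Adgre1, Cd163, Mrc1, Lyz2, C1qa, C1qb, C1qc and Cd14, are widely used to recognise macrophages, and they were taken as a named list from the 16511 genes counted in rat mammary glands. All 10 were found by symbol, and all 10 passed the filter on low counts that left 9382 genes for testing. RNA was sequenced from 12 whole, snap-frozen mammary glands collected on postnatal day 21 (PND21), 6 from offspring of dams given a high fat butter (HFB) diet and 6 from offspring of dams given the control (CTL) diet, AIN, with a single gland per litter. The published sequencing methods of the study describe microdissected tissue from a high-butterfat diet with and without bisphenol A, not from a control diet. The labels of these libraries describe whole glands of the HFB and CTL diets, and the labels were followed. The dams received these diets during pregnancy, and the published methods end them at birth, with AIN for dams and pups afterwards. The description submitted with the libraries gives more than one end of the exposure, and which applies was not settled here. Libraries are named by diet and library number (HFB 1 to HFB 6, CTL 7 to CTL 11 and CTL 14). Total counts lay between 2320267 and 2760871 in the HFB group and between 2403464 and 2944680 in the CTL group. Values are given as CPM, the read count of a gene scaled to a common library size after normalisation between libraries, and 3 counts, taken as the lowest detectable level, correspond to 0.949 to 1.30 CPM. This limit covers counting error only.

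Macrophages populate the stroma and the fat pad of the mammary gland before puberty and gather around the growing terminal end buds, where they take part in ductal elongation and clear dying cells. Their survival and number depend on signalling through the receptor for colony stimulating factor 1. Tissue macrophages also carry scavenger receptors and are a major source of C1q, the recognition molecule of the classical complement pathway.

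Markers of adipocytes and of epithelium, both part of the mammary gland, were present. Fabp4, which carries fatty acids in adipocytes, was present at 11394 to 25255 CPM, and all 6 adipocyte markers were tested. Of 7 epithelial markers listed, 6 were matched and tested, and their summed level lay between 114 CPM in HFB 1 and 654 CPM in HFB 6. In CTL 14 and HFB 6 the makeup of the RNA stood apart from that of the other libraries. The summed level of 7 lymphoid markers, led by the B cell receptor component Cd79b, was 875 CPM in CTL 14 and 903 CPM in HFB 6, against 187 CPM in HFB 1, 83.5 CPM in HFB 2 and 2.53 to 33.9 CPM in the remaining libraries. Adipocyte markers summed to 14030 CPM in CTL 14 and 17292 CPM in HFB 6 and to between 26430 and 33883 CPM elsewhere. CTL 14 and HFB 6 belong to different diets, so the estimates of the genes named below are also given without these libraries wherever the gene could still be tested. HFB 1 and HFB 2 stayed in that setting, with the highest lymphoid sums left in it. What the tissue in CTL 14 and HFB 6 contributed to the macrophage genes was not tested.

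Among the macrophage genes the C1q genes had the highest estimates with HFB, and the other 7 genes showed no common direction. C1qb and C1qc, 2 of the 10 genes, reached an unadjusted edgeR p under 0.05, both higher with HFB, where 2.34% of all genes tested did so and 1.3% did so with a higher level in HFB. These 2 genes ran together over the 12 libraries (r = 0.97), so they do not count as 2 separate results. The list was also chosen with earlier results of these data known, so the count is a description only. No gene of the 10 passed the adjusted threshold of 0.05 in edgeR's quasi-likelihood test, nor did any of the 9382 genes tested (0%, of which 220 had an unadjusted p under 0.05), and DESeq2 and limma-voom also called 0 genes. The diets overlapped for every one of the 10 genes, whereas 0.107% of all genes tested had groups that did not overlap. The median log2 fold change of the 10 genes (HFB minus CTL) was 0.16, with 7 positive and 3 negative estimates, against a median of 0.00018 and 4694 positive estimates among the 9382 genes tested. The median of the 10 genes was 0.07 with limma-voom, 0.09 without CTL 8 and 0.28 without CTL 11. These measurements come from whole tissue, in which more or fewer macrophages and more or less RNA per macrophage cannot be told apart. In the plot of all 10 genes by library, the spread within a diet exceeds the distance between the diet means for most of them.

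**Figure D1:**
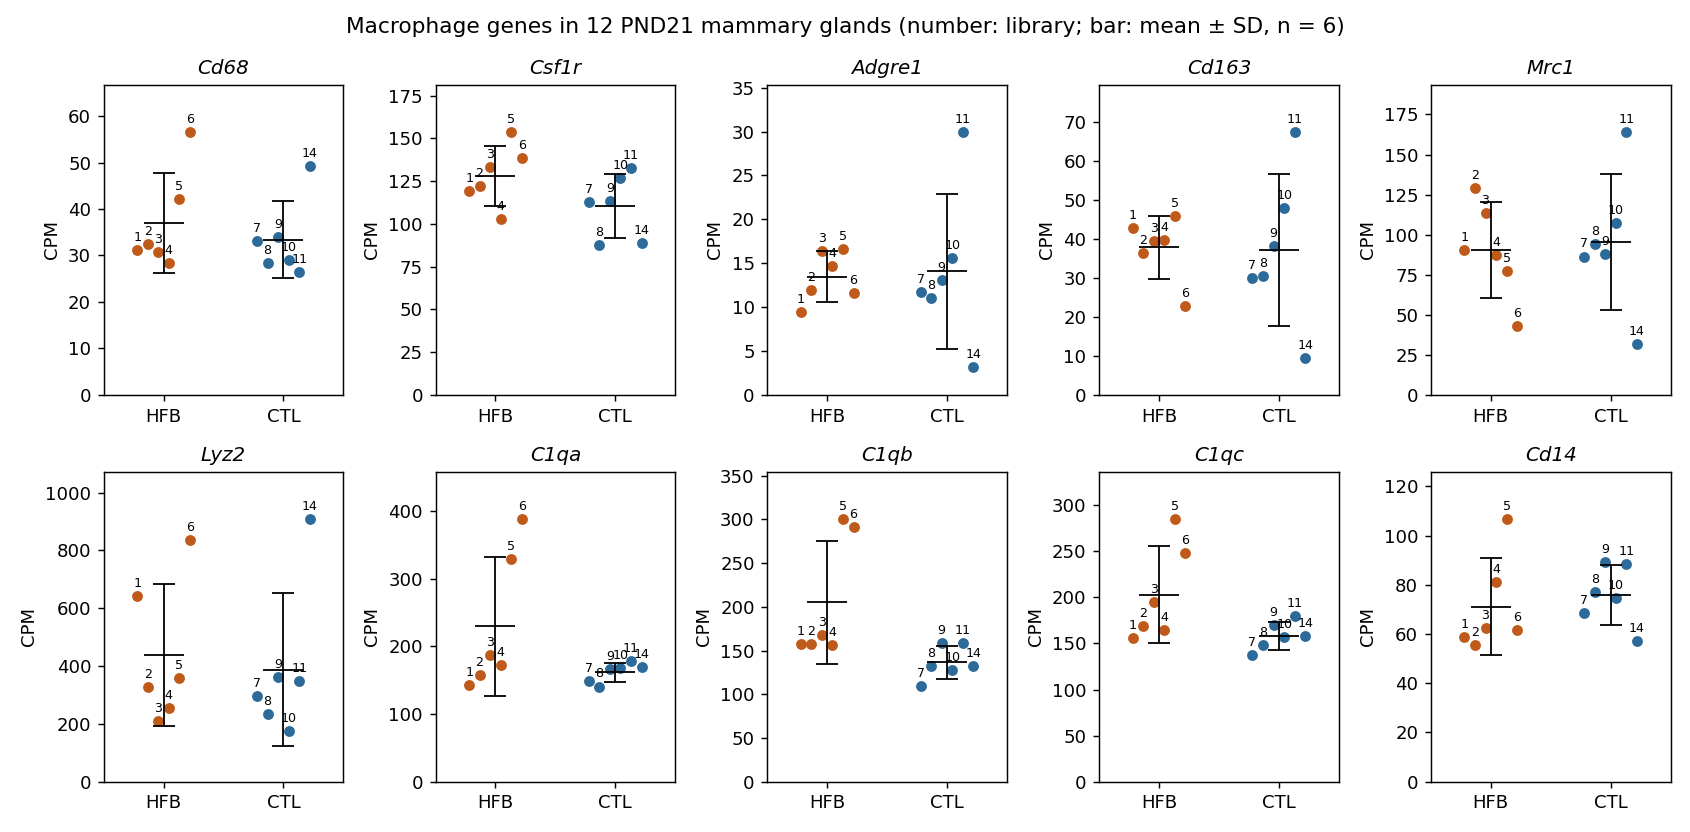
CPM of the 10 macrophage genes in each of 6 HFB (orange) and 6 CTL (blue) libraries, with library numbers beside the points and bars for the mean ± SD of each diet. HFB 5 and HFB 6 carry the high C1q values, and CTL 14 and HFB 6 hold the highest Lyz2 and the lowest Mrc1 values.

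Csf1r encodes the receptor for colony stimulating factor 1 and interleukin 34, on which most tissue macrophages depend. Its level ran from 103 CPM in HFB 4 to 154 CPM in HFB 5, with a median of 128 CPM in the HFB group, and from 87.3 CPM in CTL 8 to 133 CPM in CTL 11, with a median of 113 CPM in the CTL group. The diets overlapped widely, although 5 of 6 HFB libraries lay above the CTL median. The log2 fold change was 0.22 (SE 0.14, 95% interval -0.08 to 0.52; two-sided exact permutation test over 924 assignments of libraries to diets, p = 0.128, n = 6 per diet). This test, here and below, compares mean log2 CPM between the diets, so its p is not that of the edgeR estimate beside it. The smallest p that it can give is 0.00216. Without CTL 14 and HFB 6 the estimate was 0.14 (SE 0.14), and with limma-voom it was 0.11. Csf1r had the smallest coefficient of variation of the 10 genes over the 12 libraries, 16.5%.

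Adgre1 encodes F4/80, an adhesion G protein-coupled receptor that marks many rodent tissue macrophages. It was the gene with the fewest reads of the 10, with 9 to 71 counts per library. HFB libraries ranged from 9.46 to 16.6 CPM around a median of 13.3 CPM, and CTL libraries from 3.17 CPM in CTL 14 to 29.9 CPM in CTL 11 around a median of 12.4 CPM. Both extremes were CTL libraries, and all HFB values fell between them. On the log2 scale the fold change was -0.06 (SE 0.38), with 0.30 (SE 0.33) without CTL 11, 0.02 without HFB 1, -0.25 (SE 0.28) without CTL 14 and -0.22 (SE 0.28) without CTL 14 and HFB 6, so that leaving out either CTL 11 or HFB 1 turned its sign.

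Cd163 encodes the scavenger receptor through which macrophages take up complexes of haemoglobin and haptoglobin. Its values were 22.9 to 46.0 CPM with a median of 39.6 CPM in HFB and 9.51 to 67.4 CPM with a median of 34.3 CPM in CTL. The lowest library of each diet was the one rich in lymphoid markers, HFB 6 and CTL 14, and CTL 11 was again the highest. The mean levels of the diets were close, at 37.9 ± 8.05 CPM for HFB and 37.3 ± 19.5 CPM for CTL (SD, n = 6 each). The log2 fold change of 0.03 (SE 0.34) turned to -0.06 (SE 0.20) without CTL 14 and HFB 6, and it also turned negative when HFB 1, HFB 5, CTL 7, CTL 8 or CTL 14 alone was left out.

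Mrc1 encodes the mannose receptor CD206, an endocytic receptor for glycoproteins that bear mannose. HFB libraries spanned 42.9 to 129 CPM with a median of 88.9 CPM, and CTL libraries spanned 32.0 to 164 CPM with a median of 90.9 CPM. CTL 14 and HFB 6 were again the low libraries and CTL 11 the high one. HFB and CTL differed by a log2 fold change of -0.08 (SE 0.32), which became 0.15 (SE 0.31) without CTL 11, 0.07 (SE 0.30) without HFB 6, -0.25 (SE 0.25) without CTL 14 and -0.11 (SE 0.19) without CTL 14 and HFB 6. Adgre1, Cd163 and Mrc1 thus shared their lowest library, CTL 14, and their highest, CTL 11, with ranges of 9.44-fold, 7.09-fold and 5.12-fold over the 12 libraries.

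Cd68 and Lyz2, whose products serve the lysosome and the killing of bacteria, took another course in these libraries. Cd68 encodes macrosialin, a glycoprotein of late endosomes and lysosomes. It ranged from 28.3 to 56.5 CPM (median 31.9 CPM) in HFB and from 26.5 to 49.3 CPM (median 31.1 CPM) in CTL. HFB 6 and CTL 14 held the highest value of their diets, and CTL 11 the lowest of all. Between the diets its log2 fold change was 0.14 (SE 0.21), and it was -0.02 (SE 0.18) without HFB 6, 0.30 (SE 0.20) without CTL 14 and 0.13 (SE 0.14) without both.

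Lyz2 encodes the lysozyme of myeloid cells, which cleaves bacterial cell walls. Its level lay between 211 and 835 CPM with a median of 343 CPM in HFB, and between 175 and 909 CPM with a median of 322 CPM in CTL. CTL 14, HFB 6 and HFB 1, the libraries with the highest summed lymphoid markers, were the highest for Lyz2. The diets overlapped over almost their whole range, and the log2 fold change of 0.18 (SE 0.42) became 0.65 (SE 0.35) without CTL 14, -0.11 (SE 0.40) without HFB 6 and 0.35 (SE 0.28) without both. Of the 10 genes, Lyz2 had the largest coefficient of variation over the 12 libraries, 59.4%. The ratio of Lyz2 CPM to Cd163 CPM, used only to set libraries side by side, was 95.6 in CTL 14 and 36.5 in HFB 6 and lay between 3.65 and 14.98 in the other libraries.

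Receptors of further macrophage populations also set CTL 14 and HFB 6 apart. Marco, a scavenger receptor of marginal zone and lymph node macrophages, had 89 counts in CTL 14 and 100 counts in HFB 6 and 0 to 6 counts elsewhere. Siglec1, a sialic acid receptor also known as CD169 that marks sinus macrophages of lymph nodes, had 95 and 126 counts there and 9 to 39 counts elsewhere. Marco and Siglec1 were singled out after their values were seen. The heat map of library deviations shows these receptors beside the 10 genes and the marker scores.

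**Figure D2:**
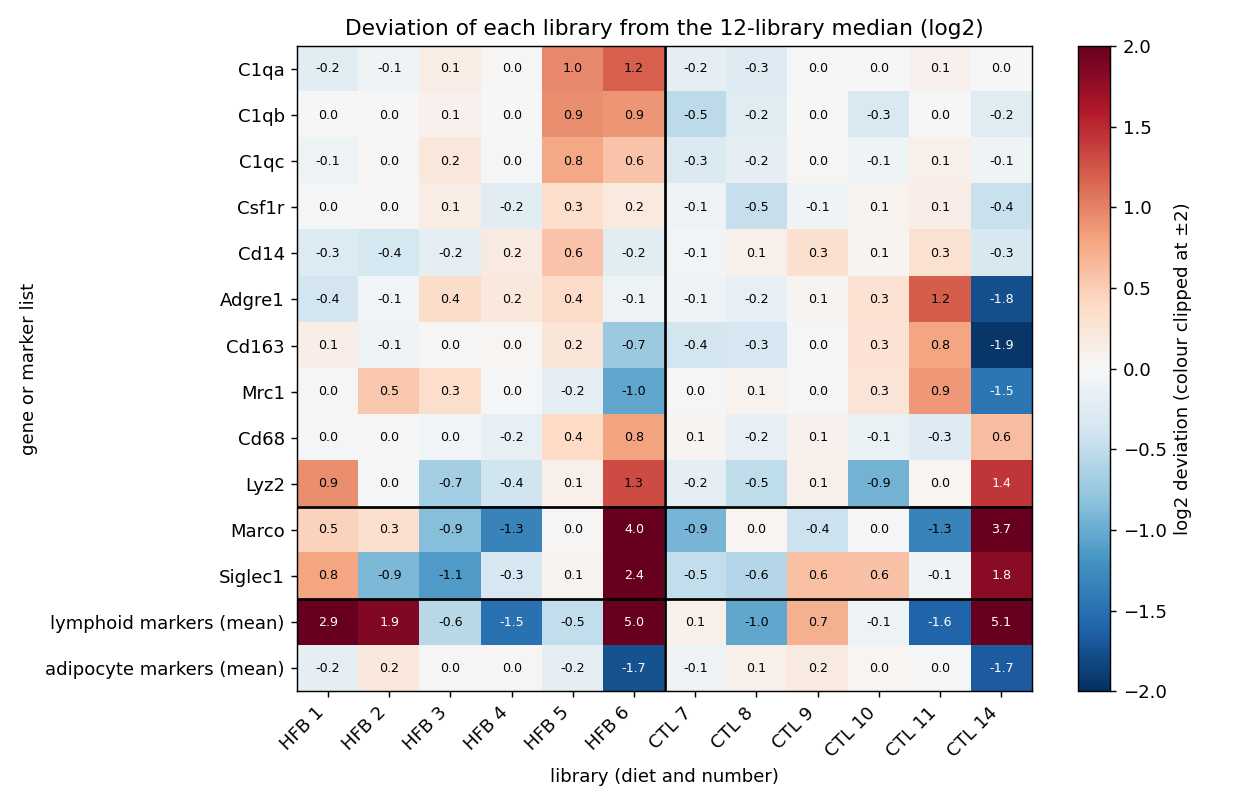
Log2 deviation of each library from its 12-library median, for the 10 macrophage genes, for Marco and Siglec1, and for the mean log2 level of the lymphoid and adipocyte markers; the colour scale stops at ±2. CTL 14 and HFB 6 combine low Cd163 and Mrc1 with high Lyz2, Cd68, Marco and lymphoid markers, and HFB 5 and HFB 6 share high C1q genes.

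The regions just upstream of C1qb and C1qa, both high in HFB 5 and HFB 6, and of Cd163 and Mrc1, which shared their extreme libraries, are printed to show what letters lie there. They are the 250 bases before the gene start, written 5′ to 3′ on the gene's strand, from RefSeq on the GRCr8 assembly. C1qb lies at chr5:154407828-154408077 (minus strand), C1qa at chr5:154419934-154420183 (minus strand), Cd163 at chr4:158770524-158770773 (plus strand) and Mrc1 at chr17:82157475-82157724 (plus strand). Capitals mark GAGGAA or its reverse complement, the core bound by PU.1, an ETS factor that directs macrophage gene programmes.
C1qb: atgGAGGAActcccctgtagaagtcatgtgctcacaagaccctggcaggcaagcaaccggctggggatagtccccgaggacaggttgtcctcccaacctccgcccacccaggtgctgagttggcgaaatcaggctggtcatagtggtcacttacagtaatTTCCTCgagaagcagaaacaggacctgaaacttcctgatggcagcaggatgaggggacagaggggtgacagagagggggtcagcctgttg
C1qa: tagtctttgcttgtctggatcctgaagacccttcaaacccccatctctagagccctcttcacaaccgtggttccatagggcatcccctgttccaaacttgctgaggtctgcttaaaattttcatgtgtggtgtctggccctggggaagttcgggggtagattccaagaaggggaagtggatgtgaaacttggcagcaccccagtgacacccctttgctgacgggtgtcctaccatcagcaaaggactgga
Cd163: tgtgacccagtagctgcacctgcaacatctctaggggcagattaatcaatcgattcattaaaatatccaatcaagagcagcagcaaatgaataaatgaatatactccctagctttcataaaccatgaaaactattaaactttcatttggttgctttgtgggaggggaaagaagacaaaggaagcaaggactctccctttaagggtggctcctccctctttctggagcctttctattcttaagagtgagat
Mrc1: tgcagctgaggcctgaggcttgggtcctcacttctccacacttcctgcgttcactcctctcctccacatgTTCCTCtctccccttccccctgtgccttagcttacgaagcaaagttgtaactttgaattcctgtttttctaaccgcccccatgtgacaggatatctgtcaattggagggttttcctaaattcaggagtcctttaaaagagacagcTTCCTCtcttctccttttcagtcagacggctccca
The core occurred at 2 places upstream of C1qb and at 2 upstream of Mrc1, and these letters were not in the windows of C1qa and Cd163. RefSeq windows were matched for 9 of the 10 genes, all but C1qc, and 7 of the 9 held the core (Cd68, Csf1r, Adgre1, Mrc1, Lyz2, C1qb and Cd14), compared with 23.3% of 33469 windows of the same length. The AP-1 motif TGANTCA, searched on both strands, was found in 1 of the 9, Cd68, compared with 6.34% of all windows. No match of one motif overlapped a match of the other (0 overlaps). A match is a description of the letters and not evidence of a bound site.

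C1qa, C1qb and C1qc encode the A, B and C chains that assemble into C1q, and C1qb, C1qc and C1qa follow each other between Ephb2 and Epha8 on rat chromosome 5. C1qb was 157 CPM in HFB 4, 157 CPM in HFB 2, 158 CPM in HFB 1, 168 CPM in HFB 3, 291 CPM in HFB 6 and 301 CPM in HFB 5. In the CTL group it was 110 CPM in CTL 7, 128 CPM in CTL 10, 132 CPM in CTL 8, 133 CPM in CTL 14, 158 CPM in CTL 11 and 159 CPM in CTL 9. HFB 5 and HFB 6 stood far above every other library, the other HFB libraries lay close together at the upper edge of the CTL range, and the diets overlapped only through CTL 9 and CTL 11. All 6 HFB libraries exceeded the CTL median (6 of 6).

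The mean level of C1qb was 205 ± 70.3 CPM in HFB and 137 ± 19.0 CPM in CTL (SD, n = 6 each), a 1.5-fold difference. The log2 fold change was 0.59 (SE 0.20, 95% interval 0.15 to 1.02; two-sided exact permutation test, p = 0.0216), and the adjusted p over all genes tested was 0.999 in edgeR. The difference thus failed the correction for multiple tests. It was 0.45 (SE 0.18) without HFB 5, 0.46 (SE 0.19) without HFB 6 and 0.46 (SE 0.19) without CTL 14 and HFB 6. Limma-voom with quality weights gave 0.33. An unadjusted p under 0.05 was kept in all 22 alternative settings, none of which left out HFB 5 and HFB 6 together.

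C1qc ranged from 156 to 285 CPM (median 182 CPM) in HFB and from 137 to 180 CPM (median 158 CPM) in CTL. Its 3 highest libraries were HFB 5, HFB 6 and HFB 3, and the remaining HFB libraries lay within the CTL range. Its log2 fold change was 0.36 (SE 0.16, 95% interval 0.01 to 0.70; two-sided exact permutation test, p = 0.0628), with 5 of 6 HFB libraries above the CTL median. Its unadjusted edgeR p stayed under 0.05 when HFB 1, HFB 2, HFB 4 or CTL 11 was left out and rose above it when any other single library was left out, with estimates between 0.24 and 0.42. Without CTL 14 and HFB 6 the estimate was 0.30 (SE 0.16), and limma-voom gave 0.20.

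C1qa lay between 144 and 388 CPM with a median of 180 CPM in HFB, and between 141 and 179 CPM with a median of 167 CPM in CTL. HFB 6 and HFB 5 were again the highest, HFB 3 exceeded the highest CTL library slightly, and the others overlapped. The SD of the HFB group, 103 CPM, was far wider than the 14.3 CPM of the CTL group. C1qa differed by a log2 fold change of 0.51 (SE 0.24, 95% interval -0.01 to 1.02; two-sided exact permutation test, p = 0.180), and by 0.37 (SE 0.24) without HFB 5, 0.29 (SE 0.20) without HFB 6 and 0.31 (SE 0.20) without CTL 14 and HFB 6. With limma-voom the difference was 0.14.

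**Figure D3:**
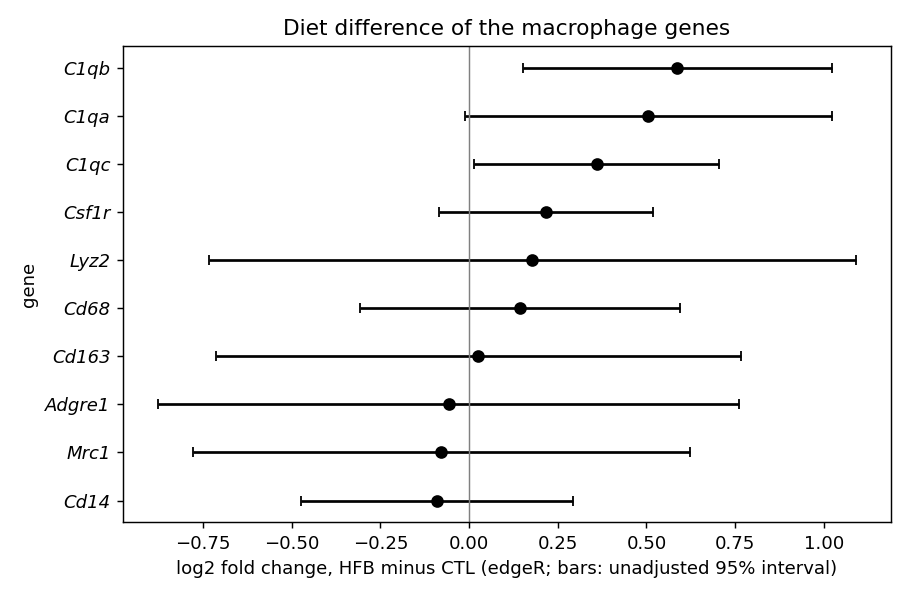
Log2 fold change (HFB minus CTL) of each macrophage gene from edgeR, with bars for the unadjusted 95% interval and n = 6 libraries per diet. The C1q genes have the highest estimates, from 0.36 to 0.59, and the intervals of C1qb and C1qc lie above 0 while the other 8 include it.

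The summed level of the C1q genes was 916 CPM in HFB 5 and 928 CPM in HFB 6 and lay between 396 and 550 CPM in the other libraries. HFB 5 and HFB 6 differed in lymphoid and adipocyte markers, since the summed lymphoid markers of HFB 5 were 13.2 CPM and its summed adipocyte markers 33883 CPM, the highest of the 12. Epithelial markers summed to 601 CPM in HFB 5 and 654 CPM in HFB 6, to 635 CPM in CTL 14, 504 CPM in CTL 7 and 456 CPM in CTL 11, and to 114 to 386 CPM in the others. CTL 7 had the lowest C1q sum of the 12, 396 CPM. Skeletal muscle markers summed to 5728 CPM in HFB 6, the highest of the 12, to 4622 CPM in CTL 11, 4245 CPM in HFB 3, 2039 CPM in CTL 9 and 1895 CPM in HFB 5, and to 144 to 1635 CPM in the others. The C1q sums of CTL 11, HFB 3 and CTL 9 were 517 CPM, 550 CPM and 495 CPM. Against the skeletal muscle score, the mean log2 CPM of those markers, C1qc had r = 0.57 (permutation p = 0.053, adjusted p = 0.14) and rho = 0.74 (permutation p = 0.0078, adjusted p = 0.093) over 12 libraries, and r = 0.58 without HFB 5 and HFB 6. C1qa had r = 0.56 (permutation p = 0.059, adjusted p = 0.15) and rho = 0.70 (permutation p = 0.014, adjusted p = 0.098) against it, and C1qb had r = 0.54 (permutation p = 0.067, adjusted p = 0.16) and rho = 0.71 (permutation p = 0.013, adjusted p = 0.098). Against the epithelial score C1qa had r = 0.48 (permutation p = 0.098, adjusted p = 0.21) and rho = 0.48 (permutation p = 0.11, adjusted p = 0.31), and r = 0.17 without HFB 5 and HFB 6. For C1qb these values were r = 0.20 (permutation p = 0.55, adjusted p = 0.65), rho = -0.01 (permutation p = 0.97, adjusted p = 0.97) and r = -0.63, and for C1qc r = 0.28 (permutation p = 0.38, adjusted p = 0.56), rho = 0.19 (permutation p = 0.56, adjusted p = 0.73) and r = -0.35. Within HFB r was 0.85 for C1qa, 0.79 for C1qb and 0.77 for C1qc, and within CTL it was 0.06, -0.51 and -0.29 (n = 6 each, not tested), and none of the tested values passed the adjusted threshold. With the skeletal muscle score as a covariate the estimates were 0.37 for C1qa, 0.51 for C1qb and 0.30 for C1qc, and the part of the epithelium was not tested. Csf1r and Cd14 were highest in HFB 5, and Cd68 was highest in HFB 6. In CTL 14, with 875 CPM of lymphoid markers, the C1q sum was 460 CPM. The proportions of the chains varied less over the libraries than their levels did. The ratio of C1qa to C1qb CPM lay between 0.909 and 1.35, and the ratio of C1qa to C1qc lay between 0.921 and 1.16 in 11 libraries and was 1.57 in HFB 6.

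**Figure D4:**
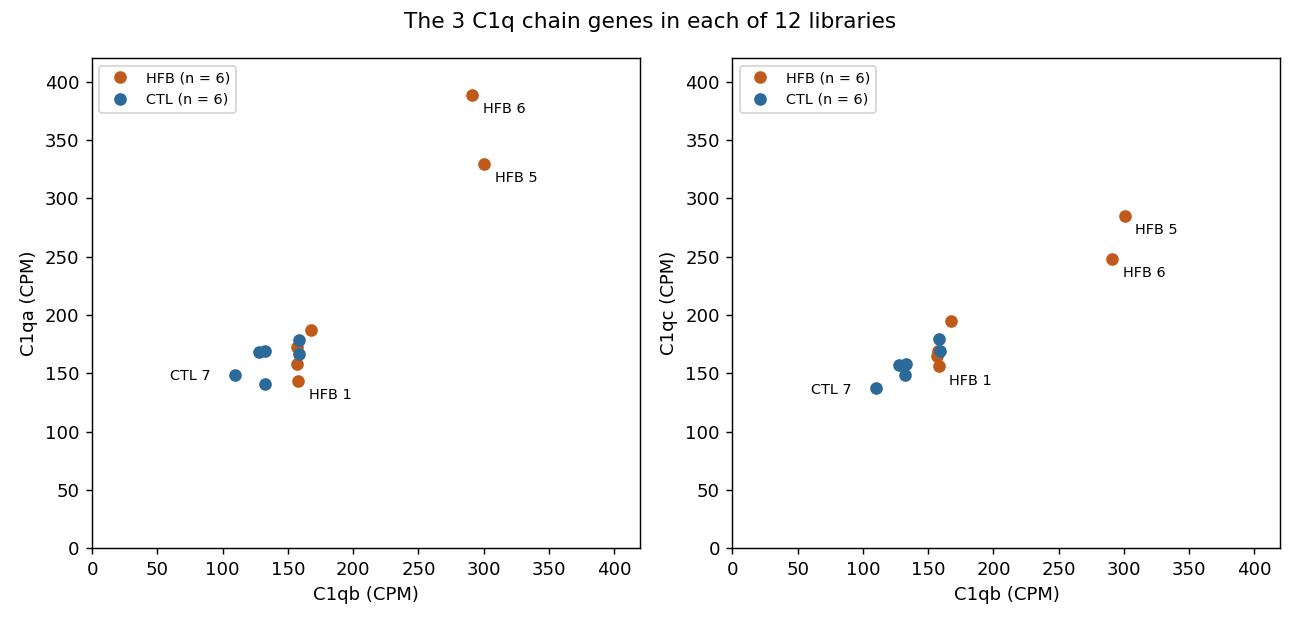
CPM of C1qa (left) and C1qc (right) against CPM of C1qb in 6 HFB (orange) and 6 CTL (blue) libraries, with 4 libraries named. HFB 5 and HFB 6 lie apart at 291 to 301 CPM of C1qb, and C1qa of HFB 6 is the highest value at 388 CPM.

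Cd14 encodes the coreceptor that hands lipopolysaccharide to the toll-like receptor complex. It ranged from 55.7 to 107 CPM (median 62.1 CPM) in HFB and from 57.1 to 89.1 CPM (median 75.8 CPM) in CTL. HFB 5 was the highest library, 4 of 6 HFB libraries were below the CTL median, and the CTL values lay inside the HFB range. Its estimate was -0.09 on the log2 scale (SE 0.18; two-sided exact permutation test, p = 0.515), with -0.24 (SE 0.15) without HFB 5 and -0.12 (SE 0.17) without CTL 14 and HFB 6.

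How the 10 genes varied together was examined on log2 CPM in 85 relations, 45 between pairs of the genes and 40 with scores of lymphoid, adipocyte, epithelial and skeletal muscle markers. Since CTL 14 and HFB 6 stood apart, the relations were also computed over the other 10 libraries, an analysis added after the data were seen. Over the 12 libraries 18 relations had an adjusted p of r under 0.05, and over the 10 libraries 2 did. Those 2 tied the C1q genes together. By rank, 1 relation passed over the 10 libraries, that of Adgre1 with C1qa (rho = 0.94, permutation p = 0.00020, adjusted p = 0.017), whose r was 0.44 (permutation p = 0.16, adjusted p = 0.49) and whose rho over 12 libraries was 0.53 (permutation p = 0.080, adjusted p = 0.25). C1qb and C1qc had r = 0.96 (permutation p = 0.00020, adjusted p = 0.0089) and rho = 0.89 (permutation p = 0.0013, adjusted p = 0.054) over 10 libraries, and r = 0.97 and rho = 0.91 (adjusted permutation p = 0.0017 and 0.016) over 12. C1qa and C1qc had r = 0.96 (permutation p = 0.00021, adjusted p = 0.0089) and rho = 0.87 (permutation p = 0.0020, adjusted p = 0.058) over 10 libraries. Leaving out HFB 5 and HFB 6, the farthest from the median, gave r = 0.85 for C1qb with C1qc and r = 0.80 for C1qa with C1qc, and within the CTL group alone r was 0.94 and 0.83 (n = 6). C1qa and C1qb had r = 0.92 (permutation p = 0.0018, adjusted p = 0.019) and rho = 0.69 (permutation p = 0.017, adjusted p = 0.098) over 12 libraries, r = 0.46 without HFB 5 and HFB 6, and r = 0.60 within the CTL group. Over the 10 libraries r was 0.90 (permutation p = 0.0086, adjusted p = 0.19) and rho 0.64 (permutation p = 0.055, adjusted p = 0.32). The libraries share their preparation and the normalisation, whose part in these relations was not tested.

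Csf1r with C1qc had r = 0.72 (permutation p = 0.0090, adjusted p = 0.043) and rho = 0.78 (permutation p = 0.0038, adjusted p = 0.081) over 12 libraries. Its r was 0.81 without CTL 8 and CTL 14, 0.73 (permutation p = 0.024, adjusted p = 0.36) over the 10 libraries and 0.53 when CTL 8 and HFB 5 were left out of those 10, and it was 0.43 within CTL and 0.87 within HFB (n = 6 each). The other 14 of the 18 relations each had an r nearer 0 once the pair of libraries farthest from the median was left out. Adgre1 and Cd163 had r = 0.92 (permutation p = 0.00052, adjusted p = 0.011) and rho = 0.74 (permutation p = 0.0074, adjusted p = 0.093) over 12 libraries, and r = 0.49 once CTL 14 and CTL 11 were left out. Over the 10 libraries they had r = 0.81 (permutation p = 0.0090, adjusted p = 0.19) and rho = 0.66 (permutation p = 0.044, adjusted p = 0.31), and r = 0.87 when CTL 11 and HFB 1 were left out of those 10. Cd163 and Mrc1 had r = 0.88 (permutation p = 0.00048, adjusted p = 0.011) and rho = 0.55 (permutation p = 0.067, adjusted p = 0.22), and r = 0.62 without CTL 14 and CTL 11. Cd68 and Mrc1 ran in opposite directions, with r = -0.87 (permutation p = 0.00084, adjusted p = 0.012) and rho = -0.73 (permutation p = 0.0087, adjusted p = 0.093), and with r = -0.58 without HFB 6 and CTL 14. Lyz2 followed the lymphoid score with r = 0.87 (permutation p = 0.00070, adjusted p = 0.012) and rho = 0.68 (permutation p = 0.020, adjusted p = 0.099), and with r = 0.62 without CTL 14 and HFB 6. Cd68 ran with the lymphoid score as well (r = 0.80, permutation p = 0.0044, adjusted p = 0.029; rho = 0.81, permutation p = 0.0023, adjusted p = 0.066), with r = 0.30 without HFB 6 and CTL 14.

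The low end of the lymphoid score lay under the detection limit, which bears on every relation with it. Of its 7 markers, 6 had under 3 counts in HFB 4 and in CTL 11, and 5 in CTL 8. Adgre1, Cd163 and Mrc1 ran opposite to the lymphoid score. Adgre1 had r = -0.74 (permutation p = 0.0013, adjusted p = 0.016) and rho = -0.70 (permutation p = 0.014, adjusted p = 0.098), and r = -0.66 without CTL 14 and HFB 6. Leaving out CTL 14 and CTL 11 instead gave r = -0.56. Cd163 had r = -0.73 (permutation p = 0.0054, adjusted p = 0.030) and rho = -0.59 (permutation p = 0.047, adjusted p = 0.17), and r = -0.22 without CTL 14 and HFB 6. For Mrc1 r was -0.76 (permutation p = 0.0057, adjusted p = 0.030) and rho -0.51 (permutation p = 0.095, adjusted p = 0.27), and r was -0.14 without those libraries. Against the adipocyte score the signs of Cd68, Lyz2 and Mrc1 were reversed. Cd68 had r = -0.88 (permutation p = 0.0023, adjusted p = 0.020) and rho = -0.51 (permutation p = 0.095, adjusted p = 0.27), Lyz2 had r = -0.81 (permutation p = 0.0021, adjusted p = 0.020) and rho = -0.59 (permutation p = 0.045, adjusted p = 0.17), and Mrc1 had r = 0.89 (permutation p = 0.0029, adjusted p = 0.022) and rho = 0.66 (permutation p = 0.022, adjusted p = 0.10). Without CTL 14 and HFB 6 these r were -0.32, -0.39 and 0.35.

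Among the pairs of genes, Cd68 and Lyz2 had r = 0.77 (permutation p = 0.0054, adjusted p = 0.030) and rho = 0.69 (permutation p = 0.017, adjusted p = 0.098), and r = 0.31 without CTL 14 and HFB 6. Adgre1 and Mrc1 had r = 0.79 (permutation p = 0.0033, adjusted p = 0.024) and rho = 0.46 (permutation p = 0.13, adjusted p = 0.34), and r = 0.62 without CTL 14 and HFB 6. Leaving out CTL 14 and CTL 11 instead gave r = 0.19, and r was -0.10 when CTL 11 and HFB 1 were left out of the 10 libraries. Mrc1 and Lyz2 ran in opposite directions with r = -0.73 (permutation p = 0.0084, adjusted p = 0.042) and rho = -0.57 (permutation p = 0.055, adjusted p = 0.20), and r = -0.13 without CTL 14 and HFB 6. None of the relations, other than those between C1q genes, that passed by r over 12 libraries passed the adjusted threshold by rank, and none of them passed over the 10 libraries by r or by rank.

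The genes outside the list whose pattern was closest to the mean z-score of the 10 genes over 12 libraries were C5h1orf216 (r = 0.87), mrpl11 (r = 0.85), Micos13 (r = 0.84), Prdx4 (r = 0.83), Folr2 (r = 0.83), Dgcr6 (r = 0.81), Ap3s2 (r = 0.81), Esd (r = 0.79), Pigt (r = 0.79) and Tspan17 (r = 0.79). This is a description of the best among 9382 genes and carries no test. Only Folr2, a folate receptor of tissue macrophages, is itself on one of the macrophage lists. The mean z-score was highest in HFB 5 at 1.13 and lowest in CTL 14 at -0.83, and among the 10 genes it followed C1qc most closely (r = 0.89) and Lyz2 least (r = 0.06).

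Beyond the 10 genes, 9 lists of genes that work with them held 90 matched genes, of which 68 were tested. None passed the adjusted threshold in edgeR (0 of 68), and 1 of 68, Cebpb, had an unadjusted p under 0.05, where 2.34% of all genes tested did. Estimates were positive for 45 and negative for 23, and their median was 0.09. Without CTL 14 and HFB 6, 69 were tested, of which 3 (4.35%, Cebpb, Irf5 and Syk) had an unadjusted p under 0.05, all higher with HFB. In that setting 4.59% of all genes tested did so, and 0 of the 69 passed the adjusted threshold. The plot of fold changes by list shows each of these genes.

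**Figure D5:**
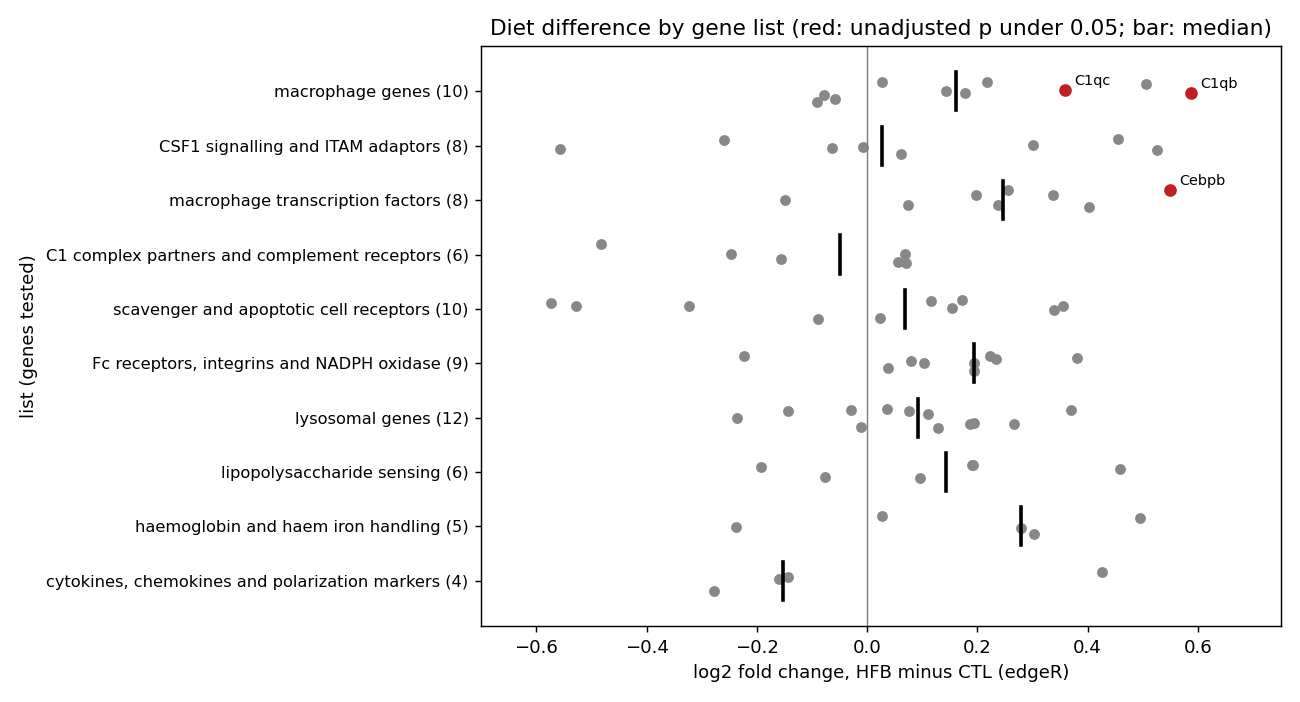
Log2 fold change (HFB minus CTL, edgeR) of every tested gene of the 10 macrophage genes and of 9 further lists, with the number tested in brackets, a bar for the median and red for an unadjusted p under 0.05. C1qb, C1qc and Cebpb are the red points, and list medians range from -0.15 to 0.28.

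The ligand Csf1 was at 70.3 ± 14.8 CPM in HFB and 84.2 ± 16.4 CPM in CTL (SD, n = 6 each), with a log2 fold change of -0.26 (SE 0.18), and -0.23 (SE 0.12) without CTL 14 and HFB 6. Of the 8 genes of CSF1 signalling and the ITAM adaptors, 4 had positive and 4 negative estimates. Without CTL 14 and HFB 6 Syk turned positive, from -0.0080 to 0.45 (SE 0.20), as did Plcg2, from -0.06 to 0.14 (SE 0.30). In that setting HFB 1 was highest for both, at 28.4 CPM of Syk and 16.0 CPM of Plcg2. HFB 1 and HFB 2 held 187 and 83.5 CPM of lymphoid markers, against at most 33.9 CPM in the CTL libraries kept. The part of lymphoid cells in these estimates was not tested. Fcer1g, an adaptor of activating receptors, had an estimate of 0.53 (SE 0.29) with its highest level, 142 CPM, in HFB 6, and 0.36 (SE 0.18) without CTL 14 and HFB 6. Among 8 transcription factors tested, 7 had positive estimates. Cebpb, a regulator of myeloid and adipocyte genes, was at 120 ± 43.8 CPM in HFB and 81.9 ± 21.8 CPM in CTL (SD, n = 6 each; log2 fold change 0.55, SE 0.24) and was highest in HFB 3 at 193 CPM and next in HFB 5 at 147 CPM. Irf5 had an estimate of 0.34 (SE 0.18) and Nr1h3, the liver X receptor alpha, one of 0.20 (SE 0.14). Leaving out CTL 14 and HFB 6 gave estimates of 0.58 (SE 0.26) for Cebpb, 0.41 (SE 0.19) for Irf5 and 0.12 (SE 0.13) for Nr1h3.

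The proteases that join C1q in the C1 complex had negative estimates. C1r, at 225 ± 45.6 CPM in HFB and 267 ± 54.0 CPM in CTL (SD, n = 6 each), had a log2 fold change of -0.25 (SE 0.17), and C1s had one of -0.16 (SE 0.13). Calr, whose product calreticulin binds C1q, had an estimate of 0.07 (SE 0.15). Leaving out CTL 14 and HFB 6 gave -0.22 (SE 0.13) for C1r, -0.22 (SE 0.13) for C1s and 0.01 (SE 0.15) for Calr. Of the 6 genes tested in this list 3 had positive and 3 negative estimates. Whether these differences are distinct from those of the C1q genes was not tested.

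Of 10 scavenger and apoptotic cell receptors tested, 6 had positive and 4 negative estimates. Cd36, which adipocytes also express, ranged from 336 CPM in HFB 6 to 1483 CPM in CTL 10 (log2 fold change -0.32, SE 0.33, and -0.29, SE 0.20, without CTL 14 and HFB 6). Folr2 had an estimate of 0.34 (SE 0.21) and was highest in HFB 5 and lowest in CTL 14, and the phagocytic receptor Mertk had one of -0.57 (SE 0.58). These became 0.23 (SE 0.16) and -0.58 (SE 0.47) without CTL 14 and HFB 6. Vsig4, a complement receptor, had 0 or 1 count in each library, which is under the detection limit of 3 counts.

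Of 9 genes for Fc receptors, integrins and the NADPH oxidase 8 had positive estimates. Among them were Aif1 at 0.19 (SE 0.23) and Cyba at 0.38 (SE 0.46), both highest in HFB 6 and next in CTL 14. These became 0.18 (SE 0.16) and 0.34 (SE 0.21) without CTL 14 and HFB 6. Lysosomal genes gave 8 positive and 4 negative estimates, with 0.08 (SE 0.22) for the cathepsin Ctsb, 0.37 (SE 0.23) for the galectin Lgals3 and -0.24 (SE 0.14) for the lipase Lipa, which became 0.05 (SE 0.14), 0.29 (SE 0.23) and -0.18 (SE 0.12) without CTL 14 and HFB 6. In lipopolysaccharide sensing 4 of 6 estimates were positive. Irf3 ranged from 44.6 to 374 CPM, highest in HFB 6 and next in CTL 14 at 306 CPM. Its log2 fold change was 0.19, and 0.08 without CTL 14 and HFB 6. Irak4 had an estimate of 0.46 (SE 0.29) and the adaptor Myd88 one of 0.10 (SE 0.13), against 0.55 (SE 0.28) and 0.09 (SE 0.12) without these libraries. Among genes for haemoglobin and haem iron handling 4 of 5 estimates were positive, with 0.28 (SE 0.19) for the ferritin heavy chain gene Fth1 and 0.30 (SE 0.25) for Blvrb, and with 0.25 (SE 0.16) and 0.31 (SE 0.18) without CTL 14 and HFB 6.

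Cytokines and polarization markers were scarce, and 4 of 14 genes were tested, with 1 positive and 3 negative estimates. The chemokine Pf4 had an estimate of 0.43 (SE 0.32) and Ccl2 one of -0.28 (SE 0.33), and without CTL 14 and HFB 6 they had 0.41 (SE 0.31) and -0.31 (SE 0.33). Il6 and Il10 had 0 or 1 count in every library and were likewise not detectable at this depth. Tnf was highest in CTL 14 (22 counts, 7.75 CPM) and then in HFB 6 (13 counts, 5.21 CPM), and Il1b in HFB 6 (20 counts, 8.02 CPM) and then in CTL 14 (22 counts, 7.75 CPM). Every other library had at most 3 counts of Tnf and 12 of Il1b.

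Markers of other cells that can share the macrophage genes were read in the same libraries. Of 9 neutrophil markers 2 were tested. Their summed level, 80.1 to 250 CPM, came mostly from Mpo, with 170 to 579 counts, while the neutrophil genes Elane, Ngp and Mmp8 had 0 to 2 counts in every library. Of 5 dendritic cell markers matched 1 was tested, and Ccr7 led their sums, which were highest in CTL 14 at 66.6 CPM and in HFB 1 at 49.8 CPM. The 6 mast cell markers, led by Cma1, summed to 88.4 CPM in CTL 14 and to 616 CPM in HFB 5, the lowest and the highest of the 12 libraries. None of the markers of these cells had an unadjusted p under 0.05, and the same held for the 2 lymphoid, 3 endothelial, 5 fibroblast, 6 adipocyte, 6 epithelial and 5 skeletal muscle markers tested. The part of these cells in the levels of the macrophage genes was not tested.

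The marker genes named by level and by p gave the following estimates (HFB minus CTL). The neutrophil genes Mpo and S100a9 had log2 fold changes of 0.17 (SE 0.30) and -0.12 (SE 0.50), and Zbtb46 of dendritic cells had -0.17 (SE 0.45). Cd3g of T cells had 0.34 (SE 1.4), with 0 to 172 CPM over the 12 libraries and its highest level in CTL 14. Without CTL 14 and HFB 6, Mpo had 0.06 (SE 0.30) and Zbtb46 -0.06 (SE 0.40). S100a9 and Cd3g had too few counts to be tested there. Of the 6 mast cell genes tested, 2 had positive and 4 negative estimates. Cma1 had an estimate of 0.16 (SE 0.33), Kit one of -0.89 (SE 0.68) and Cpa3 one of -0.44 (SE 0.50). The endothelial genes Pecam1, Cdh5 and Tek had estimates of 0.11 (SE 0.59), -0.62 (SE 0.52) and -0.13 (SE 0.21). In the setting without CTL 14 and HFB 6 the estimates were 0.06 (SE 0.23) for Cma1, -0.82 (SE 0.48) for Kit and -0.46 (SE 0.18) for Cpa3. They were 0.15 (SE 0.19) for Pecam1, -0.43 (SE 0.41) for Cdh5 and -0.12 (SE 0.22) for Tek.

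Among fibroblast genes, the collagen gene Col1a1 had an estimate of -0.08 (SE 0.24), Pdgfra one of -0.39 (SE 0.22) and Lum one of -0.17 (SE 0.18). Of the 6 adipocyte markers tested, 2 had positive and 4 negative estimates. Fabp4 had one of 0.08 (SE 0.24) and Lep, the leptin gene, one of -0.13 (SE 0.35). The epithelial genes Krt8, Epcam and Cdh1 had estimates of -0.01 (SE 0.46), -0.63 (SE 0.39) and -0.63 (SE 0.39), and the skeletal muscle genes Acta1, Ckm and Tnnc2 had 0.42 (SE 0.76), 0.91 (SE 0.84) and 0.86 (SE 0.86). Without CTL 14 and HFB 6 the muscle genes had -0.00064 (SE 0.79), 0.15 (SE 0.81) and -0.03 (SE 0.81). Krt8, Epcam and Cdh1 had -0.10 (SE 0.42), -0.64 (SE 0.42) and -0.67 (SE 0.42) there. Col1a1 had -0.12 (SE 0.20), Fabp4 had 0.05 (SE 0.17), Lep had -0.13 (SE 0.18), and the B cell gene Cd79b went from 0.31 to 1.23 (SE 0.67). In that setting Cpa3, Pdgfra (-0.44, SE 0.14) and Lum (-0.27, SE 0.12) had an unadjusted edgeR p under 0.05, where 4.59% of all genes tested did. None passed the adjusted threshold.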

How the data were processed

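The authors deposited raw read counts for 16511 genes, listed by Entrez identifier, for 12 libraries. The submitters' processing notes name bcl2fastq, CASAVA 1.8, TopHat, DESeq and the build rn4; the counting program, the annotation and the use of strand are not given in the sources used here, so reads of overlapping or near-identical genes could have been shared or lost. Symbols came from the RefSeq gene table of GRCr8 (16351 genes matched), which also gave the order of neighbouring genes, and 15 listed genes without a match were not analysed here.

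Counts were analysed in R 4.3.3 with edgeR 4.0.16 (TMM, filterByExpr, quasi-likelihood test, Benjamini-Hochberg adjustment over 9382 genes, threshold 0.05). Log2 CPM used a prior count of 2. Exact permutation tests of the difference in mean log2 CPM between the diets ran over 924 assignments. Each relation ran over 100000 resamples (Python 3.11.15, scipy 1.17.1). The tests were tried on simulated data first. Pairs of libraries within a diet differed by more than sampling noise.

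The members and lists were chosen with earlier results of these data known. Named were all 10 members, of each further list the gene with the highest mean CPM and the 2 with the smallest unadjusted p, and the 10 genes most correlated with the members' mean z-score. Vsig4, the cytokines and the neutrophil genes at low counts, Marco, Siglec1, Syk and Plcg2 were named after their values were seen.

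The alternatives were DESeq2 1.42.0, its size factors or upper-quartile normalisation in edgeR, limma 3.58.1 (voom with quality weights), testing genes without a filter or only those with 10 or more counts in each library, the lymphoid or the skeletal muscle score as a covariate, leaving out each library, leaving out CTL 14 and HFB 6, and another prior count for the relations. Leaving out HFB 1, HFB 2, HFB 6 and CTL 14 together, and the relations without CTL 14 and HFB 6, were chosen after seeing the data.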

Additional observations from a re-analysis of the deposited data

Results flagged for a closer look

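Each of 32 groups of 6 libraries, of which 20 were the macrophage genes by diet and 12 were summed levels, was searched for a highest or lowest library that stood far from its nearest neighbour relative to the range. Chance flags about 1 in 20 groups, and 6 were found, 2 of them among the macrophage genes. In the CTL group, CTL 14 stood apart with 49.3 CPM of Cd68 (next CTL 9 at 33.9 CPM) and 909 CPM of Lyz2 (next CTL 9 at 360 CPM). It also stood apart with 875 CPM of summed lymphoid markers (next CTL 9 at 33.9 CPM), 66.6 CPM of summed dendritic cell markers (next CTL 9 at 14.3 CPM) and, as the lowest, 14030 CPM of summed adipocyte markers (next CTL 10 at 28741 CPM). In the HFB group, HFB 6 stood apart with 903 CPM of summed lymphoid markers (next HFB 1 at 187 CPM). Of the 6 values 5 belong to a single library, CTL 14, and they are not independent of each other. The cause was not tested.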

How the results depend on the processing

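No macrophage gene and no gene of the table passed the adjusted threshold in any of the 22 alternatives, of which 12 left out a single library, and the lowest adjusted p of a macrophage gene was 0.684. Of the 10 macrophage genes 2 had an unadjusted p under 0.05 (2.34% of all genes tested), and 1, C1qb, did with limma-voom (6.53%), with the skeletal muscle score as a covariate (1.99%) and without CTL 14 and HFB 6 (4.59%). Leaving out single libraries gave 1 to 3 (1.42% to 6.2%). All of these were C1q genes, whose levels ran together. C1qb was under 0.05 in 22 alternatives, C1qc in 11 and C1qa in 7, and these genes and Csf1r kept a positive estimate in all, the lowest with limma-voom (C1qa 0.14, C1qb 0.33, C1qc 0.20, Csf1r 0.11). No alternative left out HFB 5 and HFB 6 together.

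Estimates near 0 changed sign. With the lymphoid score as a covariate, Adgre1 was 0.22 and Mrc1 0.17, Cd163 rose to 0.29 and Lyz2 fell to 0.0048, while limma-voom gave 0.030 for Mrc1. Cd163 was -0.0050 with upper-quartile normalisation, -0.057 without CTL 14 and HFB 6 and -0.039 without HFB 1, HFB 2, HFB 6 and CTL 14. The last setting gave -0.041 for Lyz2 and 0.066 for Cd14. Leaving out single libraries gave -0.018 to 0.30 for Cd68, -0.25 to 0.30 for Adgre1, -0.16 to 0.28 for Cd163, -0.25 to 0.15 for Mrc1 and -0.11 to 0.65 for Lyz2. Adgre1 was not tested under the filter of 10 counts in every library. The cause was not tested. Of the relations 18 passed with either prior count and 2 without CTL 14 and HFB 6. At this depth levels under 3 counts, as for Il6, Il10 and Vsig4, were not detectable. No paired analysis was possible because library numbers are not shared between HFB and CTL.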
